A study of Pteromalus puparum with 9 samples.

Results

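In the salivary gland of Pteromalus puparum, 74 of 21808 gene stand-ins were abundant in both the gland duct and the gland reservoir, at similar levels, and at least 16 times lower in the carcass. P. puparum is a parasitoid wasp whose young feed on the pupae of butterflies. The gene stand-ins are ID stems, meaning the ID of a transcript model without its final isoform number, with a trailing x kept as part of the stem. Counts were summed per stem and scaled to CPM, counts per 1e+06 counts of a library, with edgeR's TMM factors. A stem was taken when its mean over 3 libraries was at least 100 CPM in the duct and in the reservoir, at least 16 times the carcass mean in each, and within 2-fold between duct and reservoir. The members were thus chosen by their measured CPM levels, and the levels below describe them and are not evidence for the pattern.

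The study sequenced strand-specific RNA libraries of 3 tissues of wild-type wasps, the duct and reservoir of the salivary gland and the carcass, with 3 libraries labelled as biological replicates in each and a single batch label for all 9. The labels give no treatment, sex, age or developmental stage, do not say whether a library is 1 animal or a pool, and do not define the carcass further, so a p-value here reflects the spread among these libraries, which may be technical. Total estimated counts were 18690598 to 22640711 per library. In bulk samples, fewer cells of a type and less RNA per cell cannot be told apart.

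Insect salivary glands are secretory organs. Their cells make proteins that are released into a lumen, and a reservoir and a duct store and carry the product. In strongly secretory tissues a few transcripts that code for the exported products commonly make up much of the messenger RNA. The deposited tables hold IDs without gene names, positions or sequences, so no member is given a name, role or location here, and the identity of the tissues could not be checked against marker genes.

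Of 610 stems with at least 100 CPM in both gland parts, 427 were within 2-fold between duct and reservoir but did not reach the carcass threshold. A further 64 passed the carcass threshold but differed by more than 2-fold between the gland parts, 45 met neither condition, and 74 met both. The members therefore made up a small part of the abundant gland stems by number. By counts they held 44.4% ± 0.999 of the duct libraries, 50.03% ± 1.73 of the reservoir libraries and 1.78% ± 0.545 of the carcass libraries (SD, n = 3 each). Measured in TPM, a unit scaled for transcript length, their share was 37.3% ± 0.848 in the duct (n = 3), 38.1% and 43.0% in the 2 usable reservoir libraries, and 1.54% ± 0.435 in the carcass (n = 3).

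**Figure D1:**
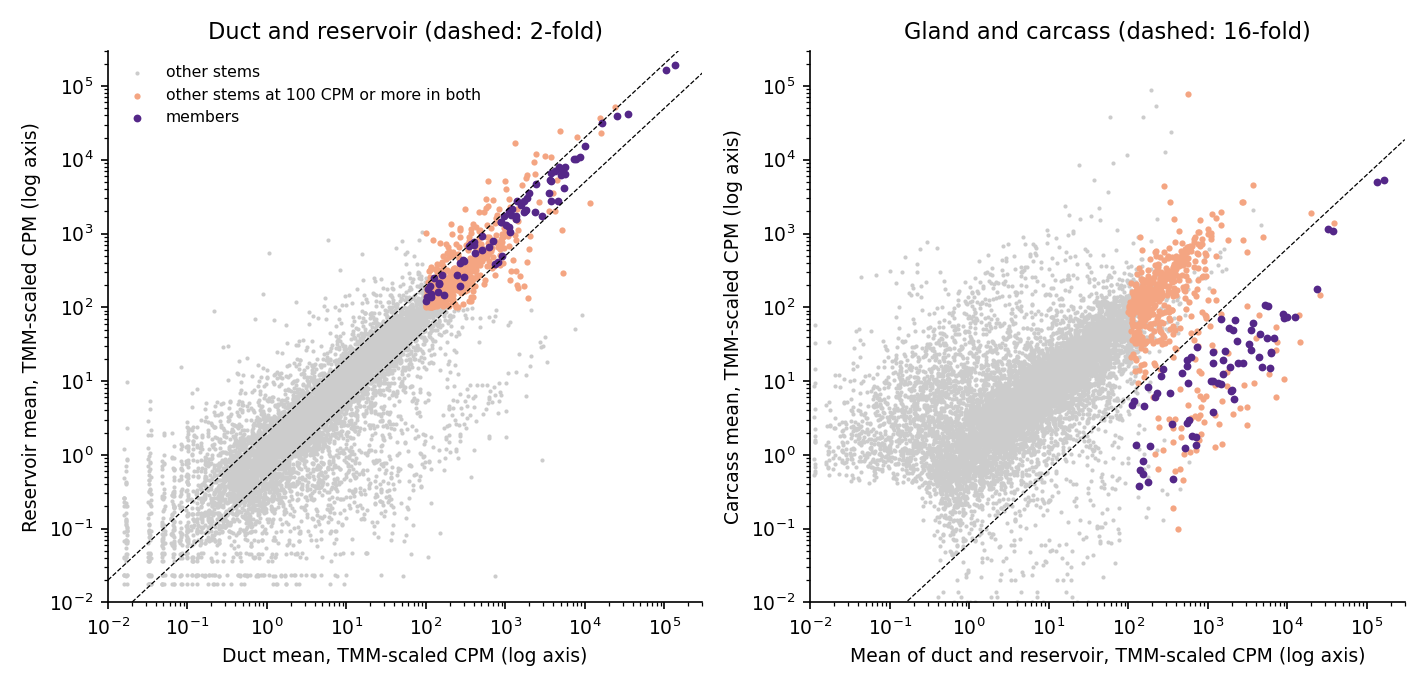
Mean level of each of 12143 stems that passed the count filter, in TMM-scaled CPM on log axes, duct against reservoir on the left and the mean of both gland parts against the carcass on the right. The 74 members lie between the 2-fold lines on the left and below the 16-fold line on the right; stems at 0 or under 0.01 CPM on either axis are not drawn.

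By counts, which are not corrected for transcript length, the abundance was concentrated in a pair of stems with consecutive Ppup numbers in the table. The pair held 23.5% of duct counts and 27.6% of reservoir counts. Ppup084370 stood at 134019, 141640 and 128924 CPM in duct replicates 1 to 3. It stood at 177015, 202193 and 203505 CPM in the matching order of reservoir replicates, and at 5329, 2724 and 7652 CPM in carcass replicates 1 to 3. Ppup084360 stood at 87301, 116070 and 110872 CPM in the duct, 160890, 179280 and 145751 CPM in the reservoir, with 5967, 2142 and 6986 CPM in the carcass. Both were higher in every gland library than in any carcass library, and with TMM scaling the 3 reservoir libraries of both lay above the 3 duct libraries. With libraries scaled by size alone, the reservoir over duct ratio of Ppup084370 fell from 1.44 to 1.14 and its duct and reservoir libraries overlapped, while those of Ppup084360 did not, at a ratio of 1.22. The fold over the carcass was modest for a member, at 25.8 and 20.8 in the duct and 37.1 and 32.2 in the reservoir.

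A second pair, also with consecutive numbers, followed. PB.2278x stood at 27590, 36583 and 39100 CPM in the duct, 39947, 43373 and 41038 CPM in the reservoir, with 1152, 691 and 1386 CPM in the carcass. PB.2279x stood at 22275, 25749 and 27456 CPM in the duct, 40197, 42575 and 35046 CPM in the reservoir, with 1390, 547 and 1514 CPM in the carcass. For each of these 4 leading stems, carcass replicate 2 was the lowest of the 3 carcass libraries. Together the 4 made up 29.3% ± 1.15, 33.8% ± 1.76 and 1.56% ± 0.489 of the duct, reservoir and carcass libraries. The other 70 members held 15.0% ± 0.198, 16.2% ± 0.0744 and 0.226% ± 0.0941 (SD, n = 3 each).

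After the leading 4, levels fell off gradually. PB.2119x had the steadiest duct level of all members, at 16479, 16933 and 16318 CPM, and stood at 35143, 35348 and 23541 CPM in the reservoir, with 287, 36.9 and 203 CPM in the carcass. PB.5198x stood at 10575, 9789 and 9524 CPM in the duct, 16198, 16810 and 12739 CPM in the reservoir, with 120, 41.7 and 62.6 CPM in the carcass. In both, the gland libraries lay far above the carcass libraries and reservoir replicate 3 was the lowest of its tissue. At least 10000 CPM in both gland parts was reached by 5 members and at least 1000 CPM by 41, while 13 lay under 200 CPM in 1 or both gland parts. The median member had 1159 CPM in the duct, 1713 CPM in the reservoir, with 15.4 CPM in the carcass.

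**Figure D2:**
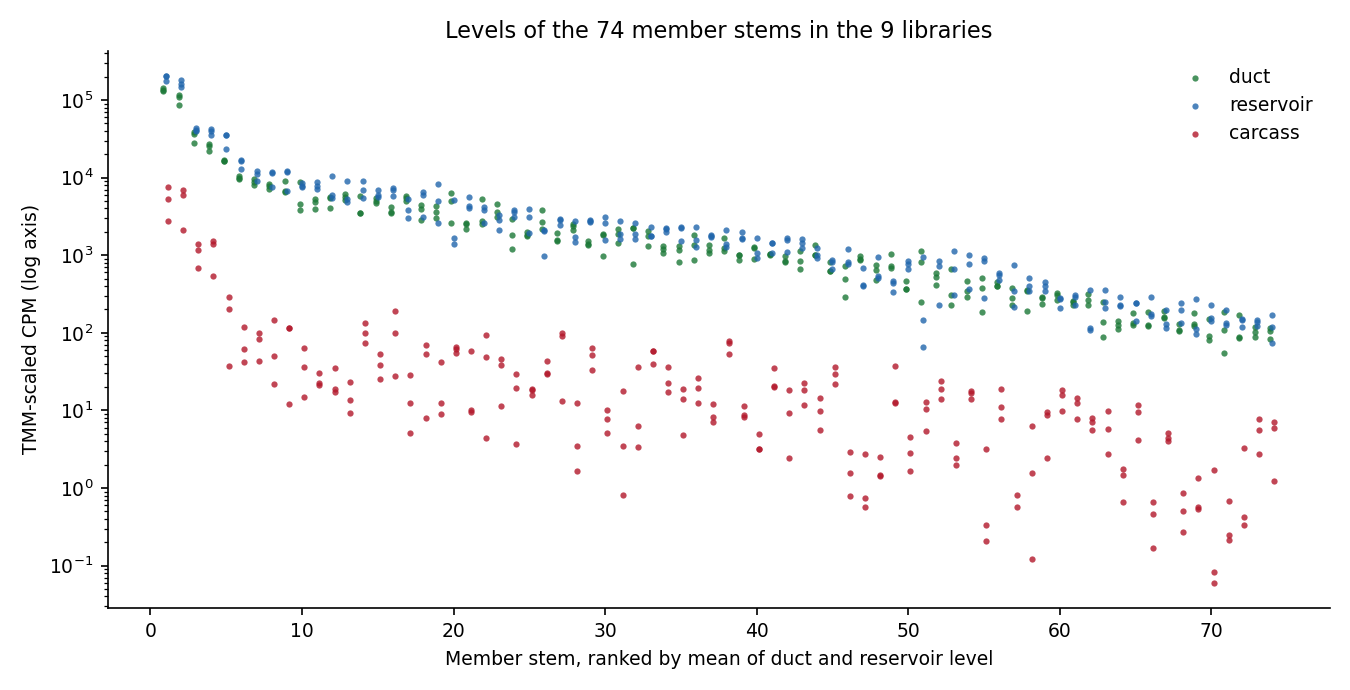
TMM-scaled CPM of the 74 members in the 9 libraries on a log axis, members ordered by the mean of their duct and reservoir levels, with 1 point per library and colour for the tissue. Gland means run from 164549 CPM for Ppup084370 down to about the 100 CPM minimum, the carcass points lie below the gland points throughout, and PB.6884x in carcass replicate 3, at a count of 0, is not drawn.

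The distance to the carcass ranged widely among the members. The smaller of the 2 folds over the carcass was at least 32 in 56 members, at least 64 in 44, at least 100 in 33 and at least 500 in 1. That 1 was PB.6884x, a stem of 18 models, at 228, 379 and 284 CPM in the duct, 344, 218 and 748 CPM in the reservoir, with 0.821, 0.575 and 0 CPM in the carcass. Its carcass counts were 23, 19 and 0, and a count of 0 allows up to 0.126 CPM in that library, from 3 counts (counting error only). It was the only member with a count of 0 in any library.

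PB.2116x and PB.2793x were also nearly absent from the carcass relative to the gland. PB.2116x stood at 184, 503 and 373 CPM in the duct, 930, 836 and 284 CPM in the reservoir, with 3.14, 0.333 and 0.209 CPM in the carcass. PB.2793x stood at 896, 982 and 858 CPM in the duct, 418, 680 and 407 CPM in the reservoir, with 2.78, 0.575 and 0.754 CPM in the carcass. Carcass replicate 1 held most of the carcass signal of both, with 88 of the counts of PB.2116x against 11 and 5 in the others, and 78 of PB.2793x against 19 and 18.

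At the other end, 3 members kept the largest carcass level relative to the gland. PB.4525 stood at 265, 327 and 308 CPM in the duct, 269.7, 284 and 210.4 CPM in the reservoir, with 18.6, 9.72 and 15.7 CPM in the carcass, so that the carcass mean was 5.30% of the gland mean. MSTRG.9036 stood at 182, 127 and 136 CPM in the duct, 241, 245 and 142 CPM in the reservoir, with 11.6, 9.42 and 4.19 CPM in the carcass. Ppup143630 stood at 1132, 1238 and 1689 CPM in the duct, 1415.5, 1267 and 2102 CPM in the reservoir, with 78.4, 53.7 and 72.9 CPM in the carcass. In each of the 3 the gland libraries did not overlap with the carcass libraries. Over all 74 members the carcass mean was 0.127% to 5.30% of the gland mean, with a median of 0.893%.

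In the fit across all 12143 tested stems, all 74 members were called higher in both gland parts than in the carcass (edgeR quasi-likelihood test, adjusted p under 0.05 and a log2 fold change of at least 1). The same rule called 38.3% of stems for the duct comparison, with 16.3% of all stems higher in the duct, and 42.5% for the reservoir comparison, with 15% of all stems higher in the reservoir. Because the rule used these contrasts, nothing is read from the 74 calls. The members' median log2 fold change was 6.52 for the duct, against -0.05 over all tested stems, and 7.02 for the reservoir, against -0.23. The 2 comparisons share their carcass libraries.

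The thresholds cut through a continuous range. PB.5913 and Ppup143450 were just inside the duct minimum at 101 and 103 CPM, and MSTRG.8297 and PB.4226x just outside at 99.1 and 95.1 CPM. The same PB.5913 and Ppup143450 had the lowest reservoir means, 121 and 136 CPM, and no stem that met the other conditions lay below the reservoir minimum. For the smaller fold over the carcass, PB.4525 at 17.3 and MSTRG.9036 at 17.7 were inside, and PB.3227 at 14.5 and PB.4288 at 13.6 outside. For the 2-fold limit, PB.5484 at 1.963 and PB.7635x at 1.960 were inside, and PB.6653x at 2.01 and PB.3733x at 2.09 outside. When each of the 9 libraries was left out in turn the rule gave 64 to 78 stems, and 48 of the 74 met it each time.

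Between the gland parts most members leaned toward the reservoir, to a degree that depended on the scaling. The median ratio of reservoir over duct was 1.40, with 62 members above 1 and 12 below. With libraries scaled by their size alone the median was 1.09, with 44 above and 30 below, so that 18 members changed side. DESeq2 size factors gave 1.47 and upper-quartile scaling 1.56. The other 536 stems with at least 100 CPM in both gland parts had medians of 1.04 with TMM scaling and 0.819 by library size alone. Among them, the 427 even stems under the carcass threshold had 1.01 and 0.791. The 64 stems over that threshold but outside the 2-fold limit had 2.85 and 2.24. A lean toward the reservoir was thus not particular to the members. The TMM factors of the duct libraries lay at 0.949 to 1.04, those of the reservoir at 0.746 to 0.819 and those of the carcass at 1.083 to 1.63.

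In 27 members all 3 reservoir libraries lay above the 3 duct libraries, and in 3 the duct libraries lay above the reservoir libraries. Over all tested stems the shares were 19.9% and 24.6%. By library size alone the counts were 13 and 8 members, against 9.33% and 39.9% of all stems. The rule itself limited this contrast, so the counts are a description. No member was called between reservoir and duct by edgeR at a 2-fold minimum, where 17.1% of all stems were called, 6.24% of all stems being higher in the reservoir, since the rule holds members within 2-fold. Without the fold minimum 3 members had an adjusted p under 0.05 and 11 had an unadjusted p under 0.05. The matching counts over all stems are not given here, so nothing is read from these 2 counts. At the same fold minimum DESeq2 called 4 members, among 2423 stems called. When reservoir replicate 1, 2 or 3 was left out, edgeR called 3, 2 and 5 members, among 1795, 1778 and 1892 stems called. The numbers of stems tested in these settings are not given here, so nothing is read from the member counts.

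The members nearest the limit on the reservoir side were PB.7635x, PB.2155 and PB.5078x. PB.2155 was at 1344, 1527 and 1377 CPM in the duct, 2835, 2710.3 and 2771 CPM in the reservoir, with 63.8, 33.6 and 51.1 CPM in the carcass. PB.5078x was at 113, 141 and 127 CPM in the duct, 223, 288 and 229 CPM in the reservoir, with 1.78, 0.666 and 1.47 CPM in the carcass. Neither showed any overlap between duct and reservoir. PB.7635x, by contrast, was at 463, 348 and 288 CPM in the duct, 777, 1010 and 367 CPM in the reservoir, with 16.9, 13.8 and 18.0 CPM in the carcass, and its reservoir replicate 3 lay inside the duct range.

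On the duct side stood PB.5484, MSTRG.1914 and PB.2793x. PB.5484 was at 733, 676 and 1028 CPM in the duct, 467, 438 and 335 CPM in the reservoir, with 37.4, 13.0 and 12.6 CPM in the carcass. In PB.5484 and PB.2793x the 3 duct libraries lay above the 3 reservoir libraries. MSTRG.1914 was at 249, 819 and 1139 CPM in the duct, 65.2, 148 and 943 CPM in the reservoir, with 10.6, 12.7 and 5.36 CPM in the carcass. Its duct and reservoir libraries overlapped, and its reservoir mean was set mainly by replicate 3.

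In the duct, replicate spread among the members was close to that of the other abundant stems over the carcass threshold. It was somewhat higher in the reservoir and lower in the carcass. The median coefficient of variation was 17.5% in the duct, 23.4% in the reservoir, with 46.5% in the carcass, against 18.1%, 19.3% and 67.6% for the 64 stems that were over the carcass threshold but uneven between the gland parts. For the 427 even stems under the carcass threshold it was 9.88%, 8.14% and 16.2%. MSTRG.1914 had the largest mean spread of the gland parts, followed by PB.6352x and MSTRG.9671. PB.6352x stood at 227, 310.3 and 665 CPM in the duct, 309, 655 and 1118 CPM in the reservoir, with 1.96, 3.85 and 2.43 CPM in the carcass. MSTRG.9671 stood at 2639, 4974 and 6347.5 CPM in the duct, 1642, 1413 and 5109 CPM in the reservoir, with 62.2, 54.8 and 66.4 CPM in the carcass. In all 3, duct replicate 3 and reservoir replicate 3 were the highest of their tissue. Few members were tight in both gland parts: 4 had a coefficient of variation under 10% in each gland part.

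The rule used tissue means, and 1 high library can raise a mean. How single libraries deviated from the mean of their own tissue is therefore not fully separate from the rule. Of the 74 members, 62 still met it without reservoir replicate 3, 65 without duct replicate 3 and 71 without carcass replicate 2. How far such members add to the correlations below was not tested. Deviations were taken on log2(CPM + 0.5). Across the 74 members, the deviations of duct replicate 3 and reservoir replicate 3 correlated with r = 0.55 and rho = 0.56. Those of duct replicate 3 and carcass replicate 2 gave r = 0.48 and rho = 0.49, and those of reservoir replicate 3 and carcass replicate 2 gave r = 0.57 and rho = 0.63. These 3 libraries, from 3 tissues, thus ranked the members in a similar way relative to their tissue mates. Over the 12143 tested stems the same 3 pairs gave r = 0.0020, 0.12 and 0.082, and over the other 536 abundant stems r = 0.19, 0.29 and 0.19. The pairs were picked among 27 between tissues after the values were seen. The points share the same libraries, and deviations within a tissue sum to 0, which ties the other pairs to these.

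MSTRG.1914 headed the members that were high in the 3 libraries, by 0.89 in duct replicate 3, 2.17 in reservoir replicate 3 and 0.47 in carcass replicate 2 on the log2 scale. Ppup081670 was at the opposite end, at -0.39, -0.42 and -2.52. It had 2760, 5252 and 2530 CPM in the duct, 4128, 3880 and 2582 CPM in the reservoir, with 92.5, 4.41 and 49.0 CPM in the carcass. All 3 libraries were below their tissue mean in 26 members (35.1%, against 22.8% of the other 536 abundant stems and 16.2% of tested stems). All 3 were above it in 11 members (14.9%, against 13.4% and 13.5%). The 3 libraries were picked on the values of these same members, which favours such shares, so nothing is read from the difference. Carcass replicate 2 alone was the lowest of its tissue in 56 members. Deviations also correlated with transcript length in some libraries, among the members and among other stems. The correlation of deviation with log2 relative length over the 74 members was r = -0.11 in duct replicate 3, -0.31 in reservoir replicate 3, -0.19 in carcass replicate 2, 0.41 in reservoir replicate 1 and 0.37 in carcass replicate 3. In the same order, the other 536 abundant stems gave -0.32, -0.069, -0.24, 0.30 and 0.29. The 10789 tested stems with a length gave -0.16, 0.046, -0.033, -0.0011 and 0.12. The part of length or of the library in the pattern was not tested.

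**Figure D3:**
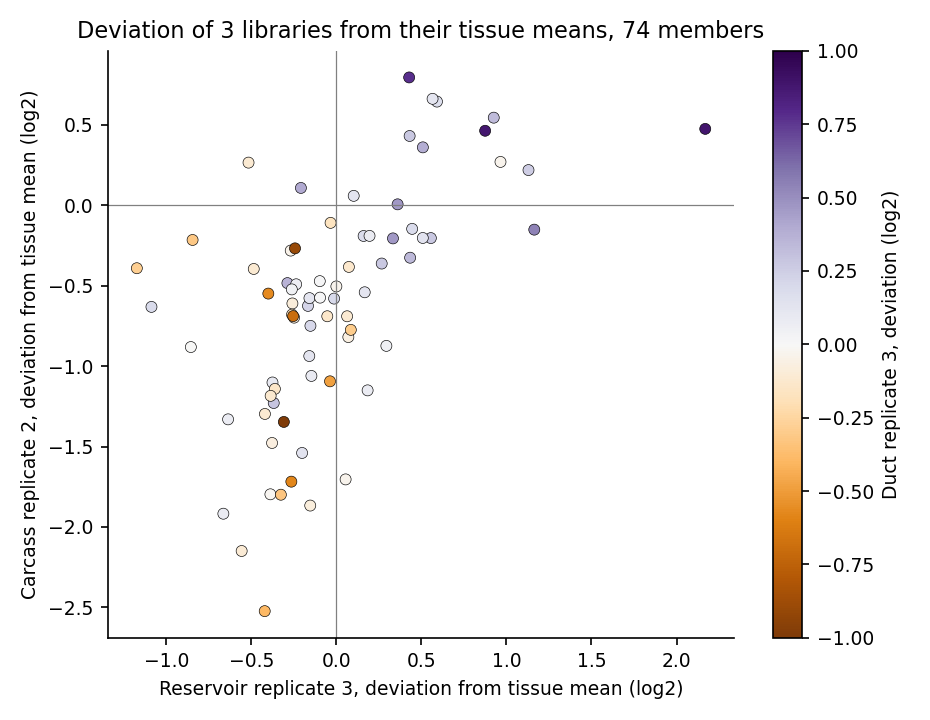
Deviation of reservoir replicate 3 (horizontal) and carcass replicate 2 (vertical) from the mean of their tissue in log2(CPM + 0.5), 1 point per member for all 74, coloured by the deviation of duct replicate 3 and with colours ending at -1 and 1. Members high in 1 of the 3 libraries tend to be high in the others (r = 0.57 between the axes), and most lie below 0 in carcass replicate 2.

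In the carcass, 56 of the 74 members were lowest in replicate 2 and 56 were highest in replicate 1. The same counts over all stems are not given here, so nothing particular to the members is read from them. The median member stood at 1.60%, 0.521% and 0.874% of its gland mean in carcass replicates 1, 2 and 3. Members held 2.11%, 1.15% and 2.09% of the counts of these libraries. The TMM factor of carcass replicate 2, 1.63, was the highest of all 9 libraries. Without carcass replicate 2 the rule gave 71 stems, and without carcass replicate 1 it gave 78.

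The members' ID classes differed in make-up from the other 536 abundant gland stems, of which 427 were even but under the carcass threshold. The classes of the 64 uneven stems over that threshold are not given apart. Nothing particular to the members is therefore read from the difference. Of the 74, 34 were PB stems with x, 17 were Ppup stems, 15 were PB stems without x and 8 were MSTRG stems. In percent this was 45.9%, 23.0%, 20.3% and 10.8%, against 19.6%, 3.36%, 72.9% and 3.54% of the other 536 abundant stems and 16.2%, 37.9%, 36.9% and 8.39% of all stems. No member belonged to the 65 MSTRGVenom or 52 MSTRGCarcass stems. Of the stems with at least 100 CPM in both gland parts, 17 of 35 Ppup stems (48.6%) were members, 34 of 139 PB stems with x (24.5%), 8 of 27 MSTRG stems (29.6%) and 15 of 406 PB stems without x (3.69%). No source used here says what the prefixes and the x stand for.

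By counts, the Ppup members held 26.4% ± 1.09 of duct counts and 30.6% ± 1.64 of reservoir counts, and the PB members with x held 15.0% ± 0.310 and 16.6% ± 0.421 (SD, n = 3 each). The PB members without x held 1.69% ± 0.109 and 1.72% ± 0.0466, and the MSTRG members 1.23% ± 0.247 and 1.076% ± 0.424. The median of the smaller fold over the carcass was 125 for PB members with x, 92.0 for Ppup, 47.1 for MSTRG and 32.8 for PB members without x.

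Every one of the 34 members with x had a stem of the same number without x in the table. None of those partners met the rule, which only 74 of all 21808 stems met. PB.2278 had 3.27 CPM in the duct, 2.51 CPM in the reservoir, with 2.77 CPM in the carcass, where PB.2278x had 34424, 41453 and 1076 CPM. PB.7962 had 0.537 CPM in the duct, 0.140 CPM in the reservoir, with 8.63 CPM in the carcass, where PB.7962x had 8748, 10810 and 74.7 CPM. Over the 34 pairs the partner's median was 6.06 CPM in the duct, 5.50 CPM in the reservoir, with 7.46 CPM in the carcass, and the member's was 1385, 2285 and 15.8 CPM. The partner made up under 1% of the summed gland level in 25 pairs and under 10% in 33.

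In 16 pairs the partner's carcass mean was above both of its gland means. Over tested stems with a value, the median carcass mean was 104% of the gland mean, so nothing is read from this count. PB.5078 was the most abundant partner relative to its member, at 84.4 CPM in the duct, 1.076 CPM in the reservoir, with 62.2 CPM in the carcass, beside 127, 247 and 1.31 CPM for PB.5078x. Only PB.6884, the partner of PB.6884x, was itself at least 16-fold over the carcass in both gland parts, at 23.2 and 47.2 CPM against 0.614 CPM. Of all 3540 PB stems with x, 3355 had such a partner. Whether stems of the same number share sequence is not given, and if they do, their counts depend on how reads were divided between them.

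**Figure D4:**
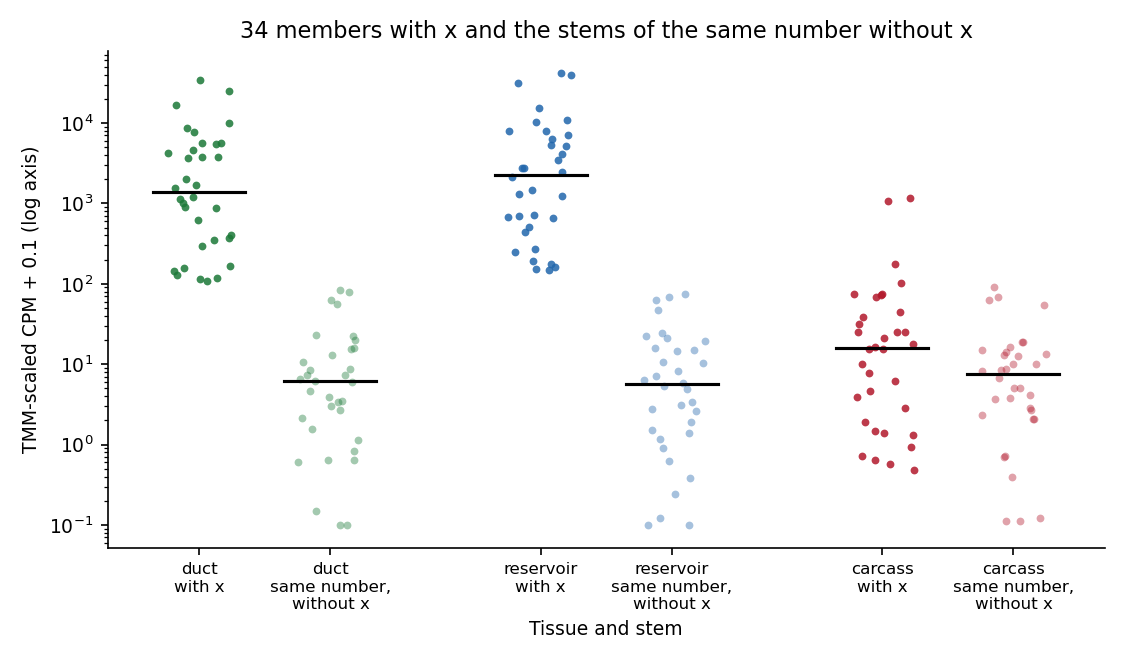
Mean level of the 34 members with x and of the stems of the same number without x in each tissue, as TMM-scaled CPM + 0.1 on a log axis, with 1 point per stem, a bar at the median and random horizontal spread. In duct and reservoir the members lie above 100 CPM and their partners below 100 CPM, while in the carcass the 2 ranges overlap.

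By the length that TPM corrects for, the members' leading models were short relative to most tested stems. So were those of the other abundant stems over the carcass threshold. Within a library, the deposited count divided by the deposited TPM is proportional to the length that the TPM corrects for, and here it was set to 1 at the median of models with at least 50 counts. The leading model of a member had a median relative length of 0.367, against 0.455 for the 64 uneven stems over the carcass threshold, 0.692 for the 427 even stems under it and 0.908 for tested stems with a value. It was under 0.1 in 16 members and over 1 in 6. Libraries gave nearly the same value, with a median coefficient of variation of 1.26%. The lowest values were those of Ppup024970 at 0.0241 and PB.1482x at 0.0274, and the highest those of Ppup172330 at 3.33 and Ppup084370 at 2.07. Transcript lengths are not given, so these values could not be checked against them.

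Per length, the order of the members therefore changed. Ppup084360 came first, with a mean of 42351 TPM in the duct and 49074 TPM in the reservoir. Ppup084370, number 1 by counts, was number 4 in TPM, at 23269 in the duct and 25873 in the reservoir. Measured per length, the pair thus weighed less among the members than by counts. PB.1627x, number 14 by counts, came second at 29345 and 39358 TPM, with 3536, 3497 and 5723 CPM in the duct and 5534, 6896 and 8982 CPM in the reservoir. PB.4601x moved from number 30 to number 8, at 15493 and 18366 TPM, and Ppup025190 from 25 to 10, at 14090 and 14849 TPM. In the other direction Ppup172330 went from number 9 to number 47, at 791.5 and 791.0 TPM. TPM means are of 3 duct libraries and of the 2 usable reservoir libraries. PB.1627x, PB.4601x and Ppup025190 had relative lengths of 0.0518, 0.0357 and 0.0462. Their TPM ranks rest on these very small values, which may not match the full transcript lengths.

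Consecutive numbers also occurred in runs of up to 3 members. PB.7814x, PB.7815x and PB.7816x formed the longest run. PB.7815x stood at 1.66 to 1.98 times PB.7816x in the 6 gland libraries and at 1.96 to 2.26 times in the 3 carcass libraries, over a range of levels from 3.15 to 1691 CPM for PB.7815x. PB.7814x stood at 3.80 to 4.43 times PB.7815x among duct libraries, 5.19 to 8.42 times among reservoir libraries and 6.19 to 6.91 times among carcass libraries. The ratio of PB.7815x to PB.7816x thus overlapped between duct and reservoir, and that of PB.7814x to PB.7815x did not. Ppup084370 stood at 1.10 to 1.54 times Ppup084360 in the gland libraries. Whether numbers follow genome position, or whether stems in a run share sequence, is not given.

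How a stem's counts were divided among its models was not used by the rule, and it was tested. Of the 74 members, 43 had 1 model and 31 had 2 or more, of which 27 had at least 2 tested models. In 28 of the 31 the same model led in all 6 gland libraries, and in 14 that model held at least 90% of the counts in both gland parts. The matching counts over all stems are not given, so nothing particular to the members is read from these. Usage was tested with limma's diffSplice F test over 4152 stems, with Benjamini-Hochberg adjustment. It differed between reservoir and duct in 2 of the 27 members (5.08% of all stems), between duct and carcass in 4 (16.4%), and between reservoir and carcass in 5 (17.4%). In percent the members' counts were 7.41%, 14.8% and 18.5%, close to those of all stems with this test and filter.

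PB.2155, a stem of 19 models, changed its leading model between the gland parts. PB.2155.15 took 28.9%, 25.7% and 27.9% of what was counted for the stem in duct libraries, 63.3%, 65.0% and 58.3% in the reservoir, with 7.11%, 8.21% and 3.77% in the carcass, in replicate order. PB.2155.16 took 42.5%, 44.6% and 54.3% in the duct, 15.98%, 14.05% and 23.3% in the reservoir, with 35.7%, 53.8% and 73.96% in the carcass. The 3 tissues did not overlap for PB.2155.15, while for PB.2155.16 duct and carcass did. PB.2155.11 and PB.2155.9 were at most 0.0351% and 0.0665% in any reservoir library, against 1.77% to 3.16% and 0.674% to 1.00% in the duct. In carcass replicates 1 to 3, PB.2155.11 took 25.8%, 2.98% and 2.13%, and PB.2155.9 took 13.2%, 7.03% and 8.03%.

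Usage of PB.2155 differed in all 3 comparisons, with limma adjusted p = 1.71e-06 between the gland parts, 6.10e-08 for the duct and 2.87e-12 for the reservoir, each against the carcass. Over 13 alternatives each, including every library left out, the adjusted p stayed between 6.39e-13 and 0.000367, 4.84e-12 and 0.000125, and 6.05e-20 and 2.29e-09. PB.2155 thus was a member whose summed level lay within 2-fold between duct and reservoir, at 1.96, while its models divided differently.

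The other member called between reservoir and duct was PB.7962x. PB.7962.12x took 8.44%, 4.90% and 12.8% of what was counted in duct libraries, 23.4%, 23.2% and 22.1% in the reservoir, with 6.53%, 23.0% and 5.56% in the carcass, and duct and reservoir did not overlap. The limma adjusted p was 0.0443. The call was lost, at 0.0525 to 0.236, without duct replicate 1, 2 or 3, reservoir replicate 1, 2 or 3, or carcass replicate 3, and edgeR's diffSpliceDGE gave 0.630.

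Against the carcass, PB.7635x, PB.4525 and PB.368 differed in both gland parts. PB.7635.2x took 92.3%, 89.9% and 95.3% of the counts of PB.7635x in the duct, 94.3%, 91.0% and 94.1% in the reservoir, with 51.4%, 23.0% and 44.1% in the carcass (limma adjusted p = 0.000614 for the duct and 0.000399 for the reservoir). PB.7635.1x led in the carcass replicates 2 and 3, at 59.1% and 53.4%. Gland and carcass did not overlap for either model.

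PB.4525.3 took 0.916%, 0.682% and 0.781% of the counts of PB.4525 in the duct, 0.881%, 0.431% and 1.31% in the reservoir, with 15.0%, 8.41% and 14.9% in the carcass (limma adjusted p = 3.29e-05 and 7.68e-05). PB.368.1 took 1.15%, 1.43% and 1.16% of PB.368 in the duct, 2.00%, 0.991% and 1.86% in the reservoir, with 9.54%, 10.4% and 9.14% in the carcass (limma adjusted p = 0.00158 and 0.00395). In both stems the same model led in all 9 libraries, and a minor model was larger in the carcass.

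PB.2278x, the third most abundant member, was called between reservoir and carcass alone. PB.2278.200x took 17.3%, 10.3% and 16.2% of what was counted in duct libraries, 25.05%, 25.02% and 23.9% in the reservoir, with 10.9%, 17.0% and 8.34% in the carcass, with PB.2278.186x taking nearly all the rest. The reservoir libraries lay above those of both other tissues. The limma adjusted p was 0.0130 for reservoir against carcass, 0.139 for reservoir against duct and 0.705 for duct against carcass. The first rose to 0.0586 to 0.0766 when any single reservoir library, carcass replicate 1 or carcass replicate 3 was left out. Models of a stem can share reads, so these shares also depend on how the authors' quantification divided them.

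**Figure D5:**
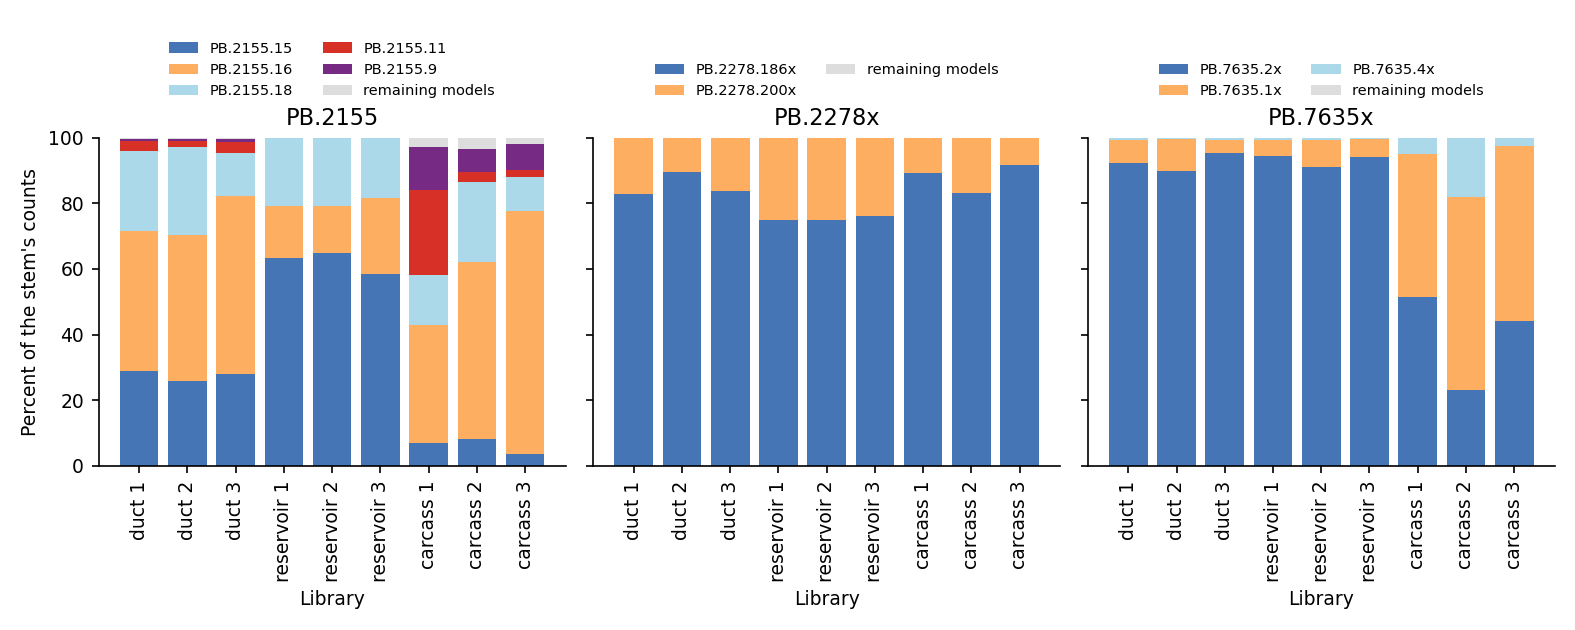
Percent of the counts of 3 members held by each of their models in the 9 libraries, stacked to 100, with models that reach 5% in no library summed as remaining models. In PB.2155 the share of PB.2155.15 is 25.7% to 28.9% in the duct and 58.3% to 65.0% in the reservoir, in PB.2278x that of PB.2278.200x is highest in the reservoir, and in PB.7635x that of PB.7635.1x is higher in the carcass than in the gland.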

How the data were processed

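Strand-specific paired-end libraries of 3 tissues, 3 each, were made by a TRIzol method and read on an Illumina platform, per the labels' protocols. The submitters' processing notes name Salmon 1.9. No source used here names its reference transcripts, settings or genome. The authors deposited estimated counts per transcript model, not normalized and already whole numbers, and TPM values. For reservoir replicate 2 the deposited TPM add up to 2000000. In 99.95% of models they match duct replicate 3 plus reservoir replicate 1 to within 2e-06, so these TPM were not used. All 9 count columns were used.

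Counts of 40026 models were summed into 21808 ID stems, of which 16341 had a count. In R 4.3.3, edgeR 4.0.16 (filterByExpr, TMM, quasi-likelihood F test, 1 coefficient per tissue over all 9 libraries) tested 12143 stems, including all 74 members, and limma 3.58.1 (voom, diffSplice) tested usage over 21287 models. Both were tested on simulated data. DESeq2 1.42.0, other scalings, no filter, a replicate block and each library left out were alternatives. Members and lists were chosen with earlier results of these data known. Named members followed a rule: the 6 highest, 3 at each end of the reservoir to duct ratio and of the carcass level, the 3 most variable, up to 4 per usage comparison and those at thresholds. Others named (PB.2278x for usage, Ppup081670, members named for length, TPM, number or partner stem) were chosen after their values were seen. Lists by gene description were not run, since the IDs are not named.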

Additional observations from a re-analysis of the deposited data

How the results depend on the processing

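Membership depended on the settings in part: every scaling and threshold tried gave 56 to 89 stems, and 52 of the 74 members met the rule under all 4 scalings. Across the gland parts and the carcass, in the order duct, reservoir, carcass, the members' share of counts was 43.9% to 44.9%, 49.5% to 51.0% and 1.62% to 2.10% with 1 library of the tissue left out. As a share of TPM it was 37.3% for the duct and 40.6% for the reservoir, and with members chosen by library size alone 53.1% in the reservoir. Without the 2 most abundant members, an alternative chosen after seeing the data, it was 20.9%, 22.4% and 0.507%. Members with changed isoform usage numbered 2, 4 and 5 for reservoir against duct, duct against carcass and reservoir against carcass. Without the count filter 4, 9 and 11 of 29 tested members were called, against 9.63%, 22.9% and 26.8% of all stems. With diffSpliceDGE 1, 7 and 7 of 27 members were called, against 5.23%, 12.4% and 15.7% of all stems. With single libraries left out the called members numbered 1 to 4, 4 in each case, and 4 to 6. For reservoir against duct they numbered 1 without duct replicate 2 or 3, reservoir replicate 1 or 2, or carcass replicate 3. Without carcass replicate 2 they numbered 4. Over all stems the shares with single libraries left out were 2.09% to 6.40%, 11.5% to 17.8% and 10.4% to 21.0%. Members called between reservoir and duct at the stem level numbered 0 with TMM, 1 by library size alone, 4 with DESeq2, and 0 to 5 with single libraries left out. Over all stems the same settings called 2079, 2345, 2423 and 1720 to 2144 stems. The numbers tested are not given for each setting, so nothing is read from these member counts. The causes were not tested. Deviations of same-numbered libraries from their tissue mean correlated at -0.14 to 0.17 over the tested stems, with 1 of 9 pairs over 0.1, so the numbers were not taken to pair the samples. Over the 74 members alone the 9 pairs gave -0.39 to 0.55, with 5 over 0.1, among them the 3 between duct and reservoir at 0.33, 0.15 and 0.55; whether libraries of 1 number share a source is not known. The replicate block left usage at 2, 4 and 5 members and stem calls at 0, 74 and 74, and changed no call of a named member. The correlations between library deviations lay between 0.41 and 0.58 with a pseudocount of 2 or unscaled CPM. Depth limits the carcass values most: the lowest count of any member was 13, 2 and 0 in carcass replicates 1, 2 and 3, in a different member each time.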
